A study of Mus musculus with 8 samples.

Results

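The genes described here are the Wnt ligands, the Frizzled receptors, the co-receptors of the Lrp and Ror families, the secreted antagonists of the Dkk and Sfrp families with *Frzb* and *Wif1*, and the nuclear effectors β-catenin (*Ctnnb1*), *Tcf7*, *Tcf7l1*, *Tcf7l2* and *Lef1* with the target gene *Axin2*. They were chosen by gene symbol, and 48 of the 38364 genes in the data matched. Poly(A)+ RNA of inguinal white adipose tissue (ING WAT) was sequenced from C57BL/6j mice at postnatal day 21 (PN21, the age of weaning, mice m1, m49, m138 and m145) and at postnatal day 98 (PN98, young adulthood, mice m35, m106, m114 and m125), with n = 4 per age. The labels give no genotype or treatment other than the strain and the age. Per the methods, dams and pups received the AIN93G synthetic diet, male mice were later fed either AIN93M or a Western-style diet until PN98, and mice were dissected after a short fast. Which of these diets the sequenced PN98 mice had, and the sex of the sequenced PN21 mice, is not given in the sources used here.

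Wnt proteins are secreted lipid-modified ligands that bind Frizzled receptors at the cell surface. Together with Lrp5 or Lrp6 they stabilise β-catenin, which enters the nucleus and activates target genes with TCF/LEF factors, whereas binding with Ror receptors acts independently of β-catenin. Secreted Frizzled-related proteins (Sfrp) and Wif1 bind the ligands and Dkk proteins bind Lrp5 and Lrp6. In adipose tissue the β-catenin branch is known to hold preadipocytes back from differentiation.

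Expression is given in FPKM, fragments scaled to the length of the transcript and to the mapped fragments of the library, summed over the transcripts of a gene. Values per mouse are listed in the order m1, m49, m138 and m145 for PN21 and m35, m106, m114 and m125 for PN98. The ages were compared with limma on log2(FPKM + 1) for the 16094 genes whose FPKM averaged 1 or more over the mice, as PN98 minus PN21, with Benjamini-Hochberg adjustment of p over all of them. A fold change on this scale understates the change of low genes. The files hold no read counts, so that the depth of the libraries is unknown. The median log2 fold change of all genes tested was −0.21, and scaling each mouse to the sum over genes of the nuclear genome or by the median of ratios moved it to 0.01 and −0.02, so that values as deposited are to be read against this shift. Of the genes called, 376 were higher and 471 lower as deposited. Nuclear gene scaling called 557 higher and 268 lower genes (5.13% of the genes in all), and median of ratios scaling called 763 higher and 454 lower ones.

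The defining markers of the labelled tissue were present, with *Adipoq* at 817 FPKM or more and *Fabp4* at 10641 FPKM or more in all 8 mice. *Ddx3y*, on the Y chromosome, lay between 18.1 and 25.9 FPKM in the 8 mice and *Xist* did not exceed 0.832 FPKM in any of them. The inguinal depot holds a lymph node, and PN98 mouse m35 stood apart from the other PN98 mice in its markers. The sum over 9 lymphocyte markers was 887 FPKM in m35 and 16.8 to 170.2 FPKM in the other PN98 mice, against 401 to 971 FPKM at PN21. Where leaving out this mouse changed a call, the result is also given without it. In bulk tissue fewer cells of a type and less RNA per cell cannot be told apart.

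Of the 48 genes, 23 passed the filter on low values and 25 had a mean FPKM under 1. At an adjusted p under 0.05, 1 of the 23 genes was higher at PN98, which was *Fzd4*, and none was lower in limma, and 5.26% of all genes tested were called. An unadjusted p under 0.05 was reached by 10 of the 23 genes and by 27.2% of all genes. In 3 of the 23 genes the PN21 and PN98 mice did not overlap, with *Fzd4* higher and *Sfrp4* and *Wnt2* lower at PN98, and over all genes tested the ages did not overlap in 16.1% (6.06% higher at PN98 and the rest lower). After nuclear gene scaling only *Fzd4* and *Axin2* were apart, both higher at PN98, while with median of ratios scaling *Fzd1* and *Lrp6*, both higher, joined the 3 genes. The median log2 fold change of the 23 genes was −0.30. As deposited 8 of them had a log2 fold change above 0 and 15 below 0, against 5315 and 10779 of all 16094 genes tested. Under each of the 2 other scalings 11 of the 23 were above 0 and 12 below 0, because *Wnt10b*, *Fzd7* and *Tcf7l1* changed sign. Without m35, 22 of the genes were tested and 5 were called, *Fzd4* higher and *Sfrp2*, *Sfrp4*, *Tcf7* and *Lef1* lower, while 22.0% of all genes were called without this mouse.

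**Figure D1:**
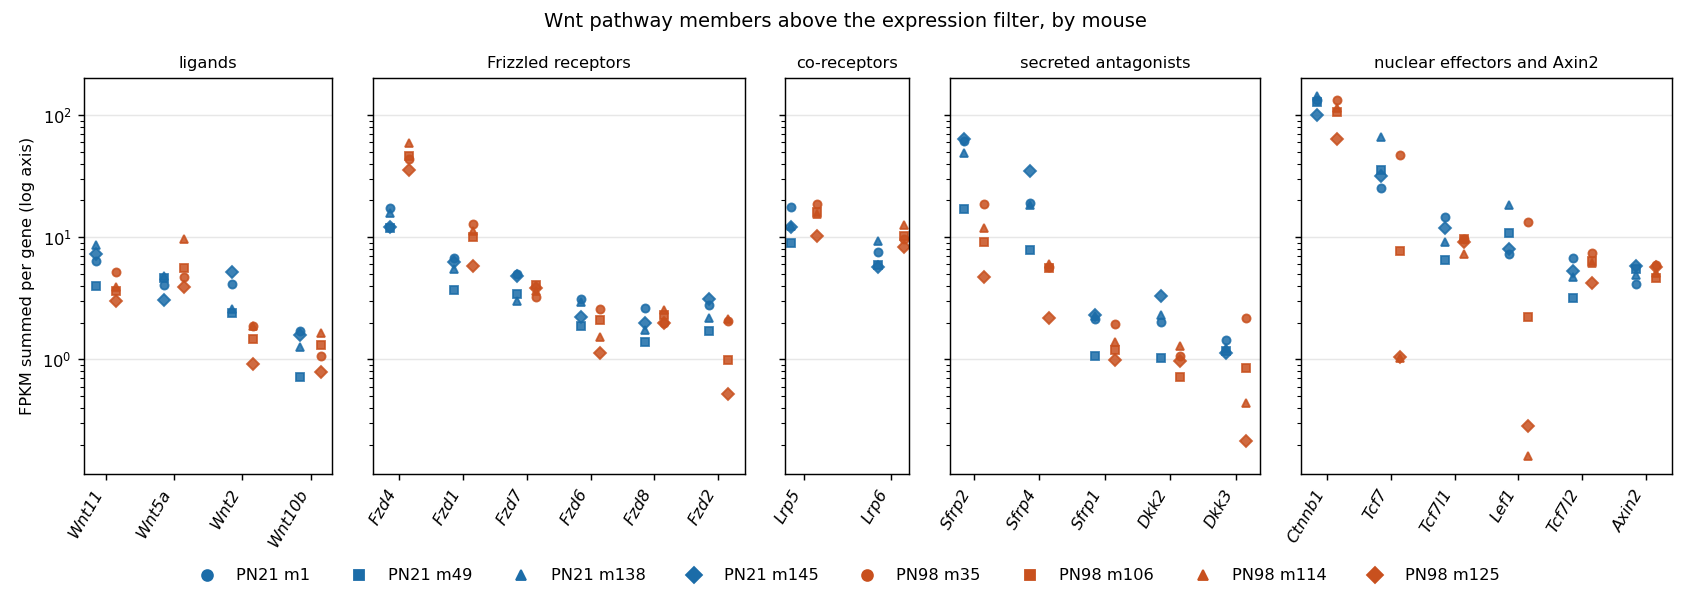
FPKM summed per gene (log axis) in each of 4 PN21 mice (blue) and 4 PN98 mice (orange), for the 23 Wnt pathway genes above the filter, grouped by role, with 1 symbol per mouse. The PN98 points of *Fzd4* lie at 35.4 to 58.7 FPKM, all above the PN21 points, and among the PN98 points of *Tcf7* and *Lef1* that of m35 is on top, at 47.4 and 13.4 FPKM.

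ING WAT expressed few Wnt ligands at an appreciable level, with 4 of 19 above a mean FPKM of 1. None of the 4 was called at an adjusted p under 0.05 in limma, and 2 had an unadjusted p under 0.05. *Wnt11*, *Wnt5a* and *Wnt2* together held 68.9% to 71.8% of the summed FPKM of all 19 ligands at PN21 and 66.4% to 75.8% at PN98. These shares do not depend on how a library was scaled.

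*Wnt11* (mm10, GENCODE vM21, chr7:98835112-98855195 on the plus strand), a ligand best known for signalling without β-catenin, had the highest mean of the ligands over the 8 mice and at PN21 (6.59 FPKM against 4.15 for *Wnt5a*), while at PN98 that of *Wnt5a* was highest (6.00 FPKM against 3.91). Its values were 6.38, 4.02, 8.68 and 7.29 FPKM at PN21 and 5.17, 3.61, 3.88 and 2.98 FPKM at PN98, and the ages overlapped between 4.02 and 5.17 FPKM. The upper of these values is that of m35, and without this mouse the ages did not overlap. The change missed the threshold (log2 fold change of −0.61 with an SE of 0.24 and adjusted p = 0.155 in limma, 95% interval −1.15 to −0.06), also without m35 (log2 fold change of −0.72, adjusted p = 0.0692). Only 28.8% of its FPKM over the 8 mice was assigned to transcripts annotated as protein-coding, and the rest to transcripts annotated for nonsense-mediated decay. That division is an estimate of the quantification program. An exon of *Gm8398* overlaps *Wnt11* on the opposite strand, and whether the quantification used strand is not given in the sources used here.

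*Wnt2* (chr6:17988940-18030585 on the minus strand), a ligand of the β-catenin branch, had lower values in all PN98 mice than in any PN21 mouse. It measured 4.16, 2.38, 2.58 and 5.22 FPKM at PN21 and 1.87, 1.46, 1.88 and 0.924 FPKM at PN98. It averaged 3.58 ± 1.35 FPKM at PN21 against 1.53 ± 0.452 FPKM at PN98 (mean ± SD, n = 4 each), and the difference did not pass the correction (log2 fold change of −0.83 with an SE of 0.25 and adjusted p = 0.0896 in limma). The non-overlap was lost when the mice were scaled to their nuclear genes, where the log2 fold change was −0.65. A transcript that GENCODE vM21 does not hold, assigned by the gene name in the file, carried 85.6% of the *Wnt2* FPKM.

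*Wnt5a*, which signals through Ror2 and other receptors, measured 4.09, 4.66, 4.82 and 3.04 FPKM at PN21 and 4.75, 5.55, 9.75 and 3.94 FPKM at PN98. Its PN98 range was set by m114, and the ages overlapped. Its share of all ligand FPKM was 14.0% to 29.0% at PN21 and 26.8% to 47.6% at PN98. *Wnt10b*, known as an inhibitor of adipogenesis made by preadipocytes, lay between 0.718 and 1.72 FPKM in all 8 mice, with no separation of the ages.

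*Fzd4* (chr7:89404355-89413134 on the plus strand) encodes a receptor of Wnt ligands and of the protein norrin, and it was the most abundant of the 10 Frizzled receptors in every mouse. It was expressed at 17.4, 11.8, 15.6 and 12.2 FPKM at PN21 and 43.7, 46.2, 58.7 and 35.4 FPKM at PN98. Every PN98 mouse was above every PN21 mouse, with a gap between 17.4 and 35.4 FPKM. The level rose 3.23-fold, with 14.3 ± 2.69 FPKM at PN21 against 46.0 ± 9.62 FPKM at PN98 (mean ± SD, n = 4 each, log2 fold change of 1.62 with an SE of 0.20 and adjusted p = 0.00676 in limma, 95% interval 1.15 to 2.08). The log2 fold change was 1.87 with scaling to nuclear genes (adjusted p = 0.00974) and 1.84 with median of ratios scaling (adjusted p = 0.00342). It is quantified as a single transcript, whose row in the deposited file also names the neighbours *Tmem135*, *Gm24659* and *Gm22171*, although no exon of another gene overlaps *Fzd4* in GENCODE vM21.

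The sequence before the start of *Fzd4* is shown because it is the gene that was called, and those of *Sfrp2* and *Sfrp5* because the log2 fold changes of these related antagonists, described after the receptors, had opposite signs. Each is the stretch of 250 bases before the RefSeq start (GRCm38.p6, the same assembly as mm10), written 5′ to 3′ on the strand of the gene, with GC boxes in capitals.
*Fzd4*, chr7:89404116-89404365, plus strand: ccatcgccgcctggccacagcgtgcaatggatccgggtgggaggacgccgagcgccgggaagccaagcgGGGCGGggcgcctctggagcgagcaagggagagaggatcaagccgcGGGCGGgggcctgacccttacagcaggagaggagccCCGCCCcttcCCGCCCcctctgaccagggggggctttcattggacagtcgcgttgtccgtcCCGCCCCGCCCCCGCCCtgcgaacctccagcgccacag
*Sfrp2*, chr3:83766071-83766320, plus strand: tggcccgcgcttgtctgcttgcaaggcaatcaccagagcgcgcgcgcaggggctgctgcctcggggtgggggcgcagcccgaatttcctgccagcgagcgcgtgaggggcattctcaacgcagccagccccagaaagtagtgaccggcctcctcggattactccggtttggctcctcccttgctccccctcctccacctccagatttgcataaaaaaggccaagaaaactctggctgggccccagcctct
*Sfrp5*, chr19:42202253-42202502, minus strand: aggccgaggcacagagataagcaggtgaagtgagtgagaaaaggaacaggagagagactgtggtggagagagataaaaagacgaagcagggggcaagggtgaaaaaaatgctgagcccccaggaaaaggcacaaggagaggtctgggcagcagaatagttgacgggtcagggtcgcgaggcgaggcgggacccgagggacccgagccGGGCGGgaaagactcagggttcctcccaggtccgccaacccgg

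A GC box was searched as GGGCGG on both strands, the core of a TCF/LEF site as CTTTGA on both strands and a TATA box as TATAAA on both strands. The *Fzd4* stretch held 7 GC boxes, a pair of which share 1 base, that of *Sfrp5* held 1 and that of *Sfrp2* held none, and 32.7% of the 32851 RefSeq promoters held at least 1 in the same window. The letters of the TCF/LEF core and of the TATA box were not in these 3 windows, against 13.8% and 12.4% of all promoters. RefSeq promoters were matched for 34 of the 48 genes. Of their 43 promoters, the count that compares with these shares per promoter, 33 held a GC box and 7 a TCF/LEF core. The 7 belonged to *Dkk1*, *Frzb*, *Fzd1*, *Lef1*, *Ror1*, *Wnt11* and *Wnt5b*, named after the search. A match of letters is a description and no binding site.

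Of the other 5 Frizzled receptors above the filter, none passed the test. *Fzd1*, the receptor with the next highest mean, measured 6.73, 3.69, 5.54 and 6.25 FPKM at PN21 and 12.9, 10.1, 11.3 and 5.85 FPKM at PN98, and the ages overlapped through m125 alone. It was called with median of ratios scaling, at a log2 fold change of 0.93 (adjusted p = 0.0357 in limma), where 7.6% of all genes were called. *Fzd7* (3.03 to 5.03 FPKM at PN21 and 3.22 to 4.08 at PN98), *Fzd8* (1.38 to 2.65 and 2.00 to 2.55), *Fzd6* (1.87 to 3.12 and 1.13 to 2.56) and *Fzd2* (1.72 to 3.11 and 0.519 to 2.16) overlapped between the ages. In the make-up of the receptors *Fzd4* held 38.2% to 47.6% of all Frizzled FPKM at PN21 and 64.4% to 71.8% at PN98. *Fzd7* held 9.22% to 15.0% and 4.46% to 7.67%, whereas *Fzd1* kept to 14.6% to 19.5% and 11.8% to 19.0%.

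**Figure D2:**
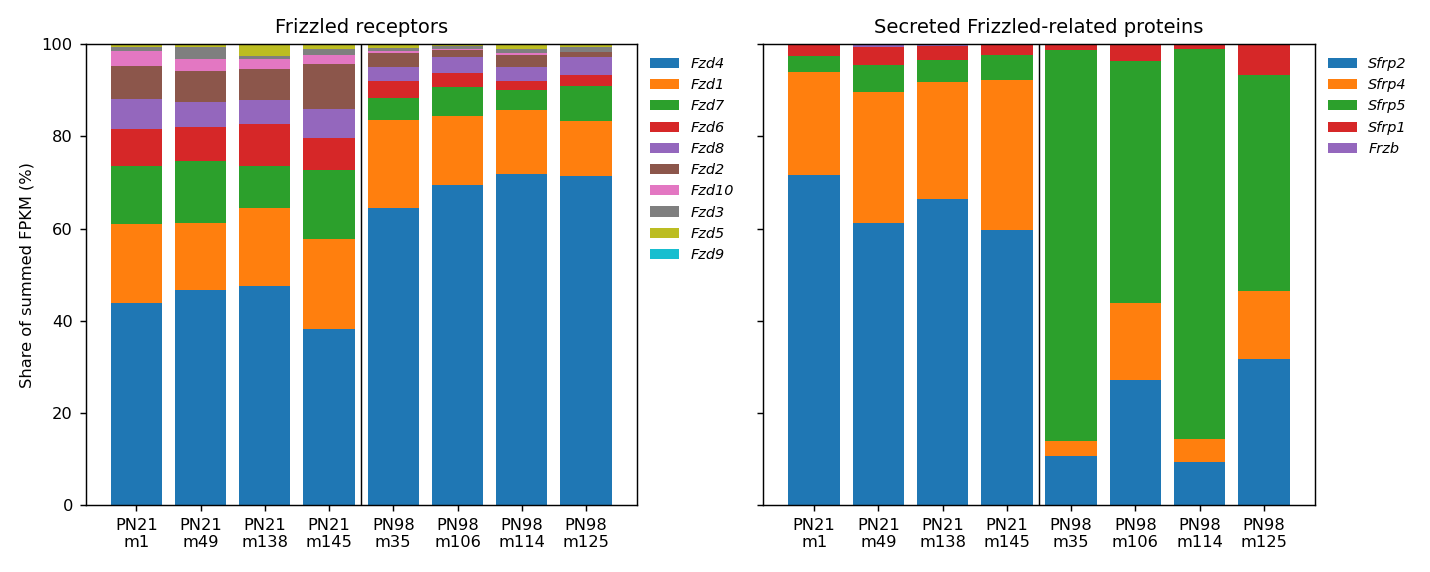
Share of summed FPKM (%) held by each of the 10 Frizzled receptors (left) and each of 5 secreted Frizzled-related proteins (right) in every mouse, as stacked bars with PN21 to the left and PN98 to the right of the line. *Fzd4* fills 64.4% to 71.8% of the receptor bars at PN98, and *Sfrp5* 46.8% to 84.7% of the bars of the secreted proteins.

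Some adipocyte markers moved with *Fzd4*. Of 8 adipocyte markers 2 were called higher at PN98, *Adipoq* (817 to 1279 FPKM at PN21 and 2512 to 3653 at PN98) and *Cidec* (364 to 566 and 1613 to 2443). None was called lower, and 2.34% of all genes tested were called higher. *Fabp4* and *Lep* were higher in all PN98 mice without a call. *Plin1*, *Cfd* and *Retn* overlapped between the ages, with log2 fold changes above 0. *Pparg* also overlapped and went the other way (log2 fold change of −0.26). The summed level of the 8 markers was 14645 to 30388 FPKM at PN21 and 36936 to 56222 FPKM at PN98. Most of this sum was *Fabp4* (10641 to 20251 FPKM at PN21 and 27521 to 37466 at PN98). The 6 endothelial markers, of cells in which Fzd4 is also known to act, summed to 205 to 355 and 109.6 to 432 FPKM, and none of them was called. Of the skeletal muscle markers *Atp2a1* rose (1.14 to 49.2 and 75.5 to 352 FPKM), and the 7 summed to 7.97 to 399.7 and 386 to 2469.7 FPKM. The ages did not overlap in 5 of the 7, all higher at PN98, against 6.06% of all genes tested. The part of these cells in the *Fzd4* result was not tested.

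Of the co-receptors, the partners of Frizzled in the β-catenin branch were expressed and the Ror receptors were low. *Lrp5* (chr19:3584828-3686564 on the minus strand) had the highest mean and measured 17.5, 8.89, 12.3 and 12.2 FPKM at PN21 and 18.6, 16.1, 15.5 and 10.2 FPKM at PN98. The ages overlapped over most of their range, and the change was not called (log2 fold change of 0.24 with an SE of 0.25 and adjusted p = 0.540 in limma), with a 95% interval of −0.33 to 0.80. *Lrp6* measured 7.53, 5.92, 9.32 and 5.74 FPKM at PN21 and 9.64, 10.2, 12.6 and 8.29 FPKM at PN98, and only the PN21 value of m138 reached into the PN98 range. *Ror2* and *Ror1* were under the filter.

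The secreted antagonist *Sfrp2* had a higher mean FPKM than *Fzd4* at PN21 (47.7 against 14.3) and a lower one at PN98 (11.1 against 46.0). All 5 antagonists that passed the filter, *Sfrp2*, *Sfrp4*, *Sfrp1*, *Dkk2* and *Dkk3*, had a log2 fold change below 0 as deposited and under both other scalings. As deposited 10779 of all 16094 genes tested lay below 0. None of the 5 antagonists was called as deposited in limma, with an unadjusted p under 0.05 for 3 of them. *Sfrp2* and *Sfrp4* had the largest differences, and both are known as Wnt-binding proteins of mesenchymal cells.

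*Sfrp2* (chr3:83766321-83774316 on the plus strand) was expressed at 61.6, 17.2, 48.4 and 63.6 FPKM at PN21 and 18.8, 9.10, 11.9 and 4.76 FPKM at PN98. The PN21 mouse m49 was the lowest of its age and the PN98 mouse m35 the highest of its age, and these were the pair that overlapped. It averaged 47.7 ± 21.4 FPKM at PN21 against 11.1 ± 5.88 FPKM at PN98 (mean ± SD, n = 4 each, log2 fold change of −1.98 with an SE of 0.50 and adjusted p = 0.0597 in limma, 95% interval −3.13 to −0.84). The adjusted p in limma was 0.0499 with median of ratios scaling and 0.0216 without m35, where the log2 fold change was −2.26. These settings called 7.6% and 22.0% of all genes. The adjusted p was 0.0848 with scaling to nuclear genes, 0.0346 without m49 and 0.112 to 0.151 without any other single mouse. An exon of *Gm26771* overlaps *Sfrp2* on the opposite strand.

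*Sfrp4* (chr13:19623104-19632994 on the plus strand) was expressed at 19.2, 7.91, 18.4 and 34.6 FPKM at PN21 and 5.68, 5.60, 6.00 and 2.19 FPKM at PN98. The PN98 mice were all below the PN21 mice, which no longer held with scaling to nuclear genes, and 3 of them lay within 5.60 to 6.00 FPKM. It averaged 20.0 ± 11.01 FPKM at PN21 against 4.87 ± 1.79 FPKM at PN98 (mean ± SD, n = 4 each, log2 fold change of −1.75 with an SE of 0.44 and adjusted p = 0.0589 in limma, 95% interval −2.75 to −0.74). Without m35 the adjusted p in limma was 0.0364 at a log2 fold change of −1.83, where 22.0% of all genes were called. The adjusted p was 0.0829 with scaling to nuclear genes, 0.0595 with median of ratios scaling and 0.0373 without m49. It was 0.110 to 0.133 without any other single mouse.

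*Sfrp5* (chr19:42197971-42202252 on the minus strand), an antagonist of the same family known to be made by adipocytes, is no member of the symbol list but completes the family. It measured 2.94, 1.66, 3.45 and 5.72 FPKM at PN21 and 148, 17.5, 105.6 and 6.999 FPKM at PN98. All PN98 mice were above all PN21 mice, but within PN98 m35 and m114 were far above m106 and m125. The change was not called (log2 fold change of 3.22 with an SE of 0.90 and adjusted p = 0.0804 in limma, 95% interval 1.15 to 5.28). It was called with median of ratios scaling (adjusted p = 0.0452), where 7.6% of all genes were called, but not with scaling to nuclear genes (adjusted p = 0.0570). Of the summed FPKM of *Sfrp1*, *Sfrp2*, *Sfrp4*, *Sfrp5* and *Frzb*, *Sfrp2* and *Sfrp4* together held 89.5% to 93.9% at PN21 and 14.0% to 46.5% at PN98. *Sfrp5* held 3.41% to 5.92% at PN21 and 46.8% to 84.7% at PN98. Leptin (*Lep*), the adipocyte hormone, was also highest in m35 and m114 among the PN98 mice (396, 162, 569 and 102 FPKM, against 25.4 to 82.4 at PN21). So was the adipocyte marker *Plin1*, whereas *Pparg* (57.5, 115, 63.0 and 147 FPKM), *Fabp4* and *Cidec* were lowest in these mice. *Adipoq*, *Cfd* and *Retn* followed neither order. The 4 brown adipocyte markers summed to 123, 1415, 358 and 2171 FPKM at PN98, against 1860 to 2917 at PN21. The part of adipocytes in the *Sfrp5* values was not tested.

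Some markers of adipose progenitors and fibroblasts moved with *Sfrp2*, *Sfrp4* and *Wnt2*. Of 10 such markers 3 were called lower at PN98, the collagens *Col1a1* (356 to 1125 FPKM at PN21 and 35.1 to 146 at PN98) and *Col3a1* (1179.6 to 2487 and 104 to 521) and the preadipocyte factor *Dlk1* (7.61 to 25.4 and 0.532 to 1.67), and none was called higher. Over all genes tested 2.93% were called lower. Of the 10 markers 8 had a log2 fold change below 0 and 2 above 0. The surface markers *Pdgfra* (7.71 to 11.3 and 5.24 to 9.90), *Dpp4* (10.98 to 20.3 and 6.43 to 12.7) and *Pi16* (29.4 to 109 and 51.1 to 126) overlapped between the ages. The summed level of the 10 markers was 1994 to 4154 FPKM at PN21 and 588 to 1483 FPKM at PN98. A sum is weighted by level, and at PN21 *Col1a1* and *Col3a1* weighed far more in it than *Pdgfra*, *Dpp4* or *Pi16*. Schwann cell markers moved the same way, with 2 of 3 tested called lower and all 3 lower in every PN98 mouse than in any PN21 mouse. The 4 listed summed to 88.4 to 266 FPKM at PN21 and 20.6 to 44.8 at PN98. The part of progenitors, fibroblasts and Schwann cells in the values of *Sfrp2*, *Sfrp4* and *Wnt2* was not tested.

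Among the lower antagonists, *Dkk2* measured 2.03, 1.02, 2.296 and 3.33 FPKM at PN21 and 1.07, 0.719, 1.29 and 0.980 FPKM at PN98, with m49 inside the PN98 range. *Sfrp1* lay at 1.07 to 2.31 FPKM at PN21 and 0.994 to 1.93 at PN98. *Dkk3*, a member of the family that is not known to bind Lrp5 or Lrp6, lay at 1.13 to 1.44 and 0.216 to 2.18, where the highest PN98 value belonged to m35.

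**Figure D3:**
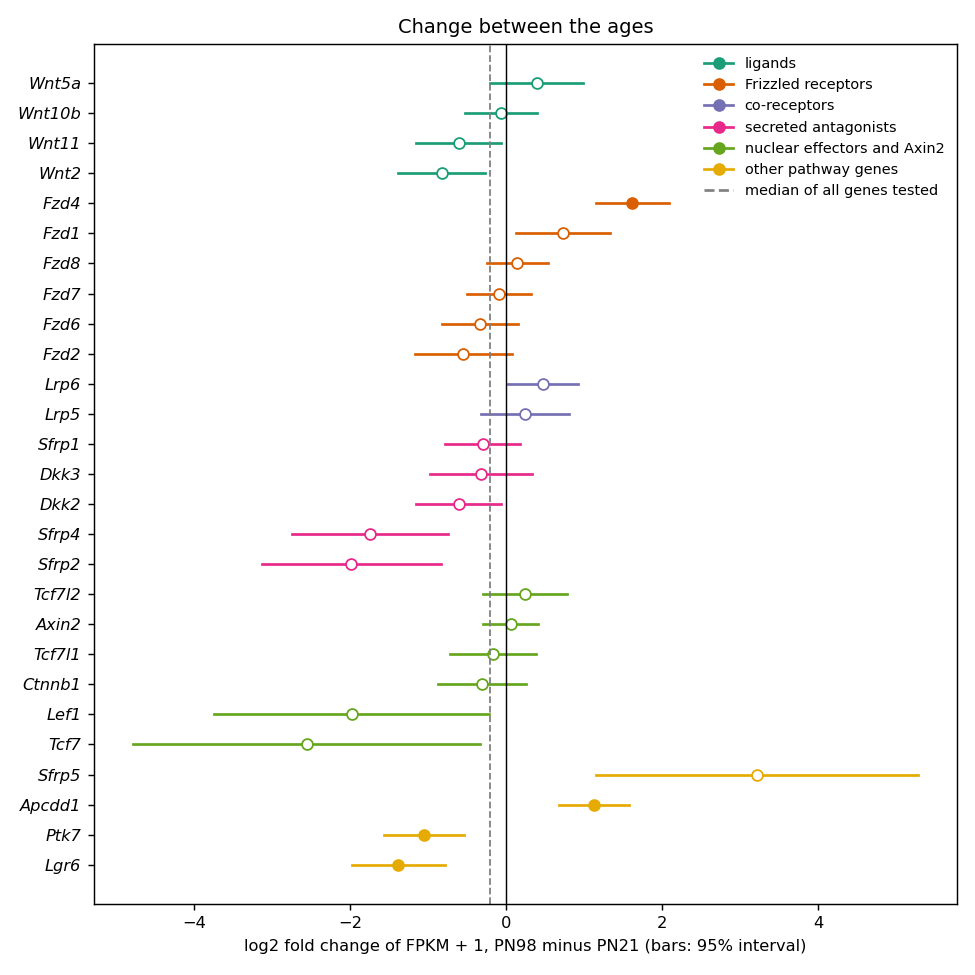
Log2 fold change of FPKM + 1, PN98 minus PN21, with its 95% interval from limma, for the 23 Wnt pathway genes above the filter and 4 other pathway genes, coloured by role. Filled points have an adjusted p under 0.05, the solid line marks 0 and the dashed line the median of all genes tested (−0.21). *Fzd4* at 1.62 is the single filled point among the 23.

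*Ctnnb1* (chr9:120929216-120960507 on the plus strand), the β-catenin gene, was the most expressed of the 48 genes. Its values were 133, 127, 142 and 100.1 FPKM at PN21 and 133, 106.2, 113.9 and 63.2 FPKM at PN98. The mice of both ages lay in the same range except for m125, which was the lowest, and the change was not called (log2 fold change of −0.31 with an SE of 0.25 and adjusted p = 0.439 in limma, 95% interval −0.88 to 0.26). *Ulk4* overlaps *Ctnnb1* in exons on the opposite strand, and *Wnt5a*, *Fzd6*, *Tcf7l1*, *Lef1* and *Axin2* likewise share exonic sequence with a predicted gene on the opposite strand. *Axin2*, a feedback inhibitor commonly read as a sign of β-catenin activity, measured 4.14, 5.53, 4.93 and 5.77 FPKM at PN21 and 5.88, 4.604, 5.09 and 5.75 FPKM at PN98. *Axin2* averaged 5.09 ± 0.726 FPKM at PN21 against 5.33 ± 0.594 FPKM at PN98 (mean ± SD, n = 4 each), and the ages overlapped almost fully as deposited, whereas with scaling to nuclear genes the PN98 mice all lay above the PN21 mice at a log2 fold change of 0.28.

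The TCF/LEF factors fell into a pair that was even between mice and a pair that was not. *Tcf7l1*, mostly a repressor, lay at 6.47 to 14.7 FPKM at PN21 and 7.25 to 9.65 at PN98, and *Tcf7l2*, a factor with many splice forms in metabolic tissues, at 3.19 to 6.79 and 4.18 to 7.40. *Tcf7*, the factor of T cells, measured 25.4, 35.5, 66.2 and 31.7 FPKM at PN21 and 47.4, 7.77, 1.02 and 1.04 FPKM at PN98. *Lef1*, which lymphocytes also express, measured 7.25, 10.8, 18.4 and 7.95 FPKM at PN21 and 13.4, 2.24, 0.161 and 0.284 FPKM at PN98. In both genes m35 stood within the PN21 range and the other 3 PN98 mice were below every PN21 mouse.

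Lymphocyte markers were high and low in the same mice as *Tcf7* and *Lef1*, although the order of the mice differed within the PN21 mice and between m114 and m125. The sums over 9 lymphocyte markers were 401, 568, 971 and 740.5 FPKM at PN21 and 887, 170.2, 48.5 and 16.8 FPKM at PN98. The 4 markers of lymph node stroma summed to 159, 225, 358 and 384 FPKM and 403, 46.3, 13.5 and 12.1 FPKM. None of the 9 lymphocyte markers was at 0 in any mouse, none was called with all 8 mice, and of the stroma markers *Madcam1* was called lower. None of the 6 genes of this class, *Axin2* included, was called with all 8 mice in limma, and 2 had an unadjusted p under 0.05. For *Tcf7* and *Lef1* the log2 fold changes without m35 were −3.53 and −2.75 (adjusted p = 0.0103 and 0.0101 in limma), where 22.0% of all genes were called. *Tcf7* and *Lef1* together held 78.1% of the FPKM of the 4 TCF/LEF factors in m35 and 8.09% to 38.5% in the other PN98 mice, against 60.2% to 85.9% at PN21. The part of lymphocytes and lymph node stroma in these values was not tested.

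**Figure D4:**
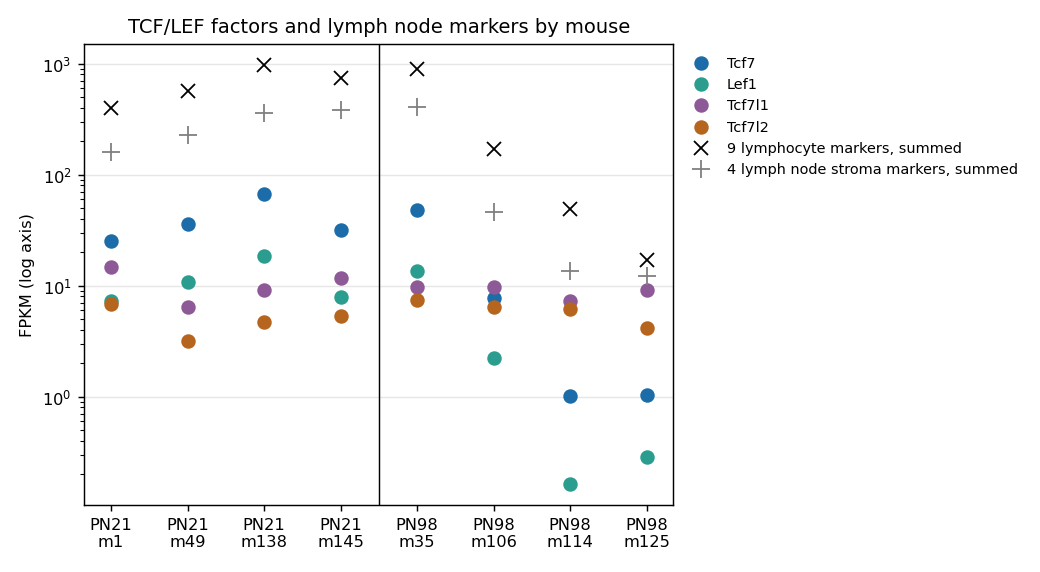
FPKM (log axis) of the 4 TCF/LEF factors in each mouse, with the summed FPKM of 9 lymphocyte markers (crosses) and 4 lymph node stroma markers (plus signs). *Tcf7*, *Lef1* and both sums are high in the PN21 mice and in m35 and low in m114 and m125, whereas *Tcf7l1* and *Tcf7l2* stay within 3.19 to 14.7 FPKM.

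The 25 genes with a mean FPKM under 1 were 15 ligands, 4 Frizzled receptors, *Ror1* and *Ror2*, and 4 antagonists. *Wnt3a* was listed at 0 in all 8 mice, and 18 of the 25 did not exceed 1 FPKM in any mouse. The ages did not overlap in 6 of the 25, and over all genes under the filter this held for 8.15% (2.52% higher and 5.63% lower). These 6 were picked out by their values and were not tested at this level.

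Higher at PN98 among them were *Wnt9a* and *Wnt8b*. *Wnt9a*, a ligand of the β-catenin branch, measured 0.562, 0.389, 0.533 and 0.585 FPKM at PN21 and 1.804, 1.23, 1.28 and 0.988 FPKM at PN98, and it held 2.36% to 2.71% of all ligand FPKM at PN21 and 6.24% to 10.2% at PN98. *Wnt8b* lay at 0 to 0.0325 FPKM at PN21 and 0.0653 to 0.186 at PN98, close to 0 in every mouse. Lower at PN98 was *Ror2*, the receptor of Wnt5a, with 1.27, 0.532, 1.06 and 2.31 FPKM at PN21 and 0.291, 0.165, 0.311 and 0.126 FPKM at PN98. *Wnt2b* measured 0.613, 0.620, 0.839 and 0.623 FPKM at PN21 and 0.365, 0.320, 0.379 and 0.237 FPKM at PN98, and *Fzd10* (0.609 to 1.29 and 0 to 0.378 FPKM) and *Wnt4* (0.0657 to 0.258 and 0.0387 to 0.0519 FPKM) were the other two.

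Of the genes whose ages overlapped, *Wif1* measured 0.104, 0.117, 0.362 and 0.248 FPKM at PN21 and 1.17, 0.620, 1.02 and 0.207 FPKM at PN98, with m125 inside the PN21 range. Only 19.3% of the *Wif1* FPKM was assigned to protein-coding transcripts, and the rest to a transcript annotated as a retained intron. *Wnt6* measured 1.01, 0.536, 1.17 and 1.57 FPKM at PN21 and 0.716, 0.360, 0.249 and 0.0953 FPKM at PN98, and *Wnt16* measured 0.499, 1.42, 1.58 and 0.124 FPKM at PN21 and 0.211, 0.157, 0.106 and 0.0811 FPKM at PN98. The 2 lowest *Wnt16* mice of PN21 were m145 and m1, so that its PN21 mean rested on m49 and m138. *Wnt5b* lay at 0.463 to 1.08 and 0.610 to 1.07 FPKM and *Ror1* at 0.436 to 0.577 and 0.165 to 0.665 FPKM. *Fzd3*, *Fzd5*, *Fzd9*, *Wnt10a*, *Frzb*, *Wnt1*, *Wnt3*, *Wnt7a*, *Wnt7b*, *Wnt8a*, *Wnt9b*, *Dkk1* and *Dkk4* did not exceed 0.791 FPKM in any mouse.

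**Figure D5:**
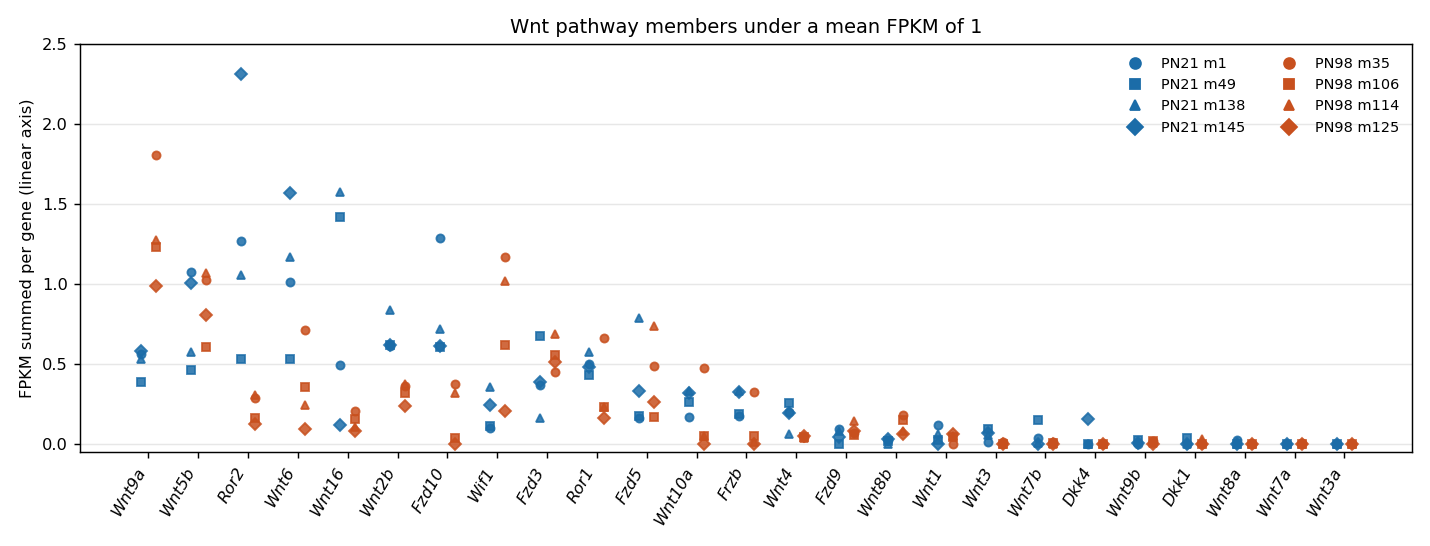
FPKM summed per gene (linear axis) in each PN21 mouse (blue) and PN98 mouse (orange) for the 25 Wnt pathway genes with a mean FPKM under 1, ordered by mean. The PN98 points of *Wnt9a* (0.988 to 1.804 FPKM) lie above and those of *Ror2* (0.126 to 0.311 FPKM) below the points of the other age.

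Beyond these 48 genes, 72 other genes of the pathway were taken from 6 lists, and 50 of them passed the filter. At an adjusted p under 0.05, 1 of the 50 was higher and 2 were lower at PN98 in the same limma comparison, against 2.34% and 2.93% of all genes tested. The median log2 fold change of the 50 was 0.02. The cytoplasmic components (17 tested), the nuclear cofactors (8), the planar cell polarity genes (7) and the target genes (6) had no called member with all 8 mice as deposited, and the called genes came from the R-spondin list (1 of 5) and from the list of other extracellular antagonists and co-receptors (2 of 7). Without m35, 9 of the 50 were called, among them 4 of the 6 target genes, while 22.0% of all genes were called without this mouse.

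*Apcdd1*, a membrane protein that inhibits Wnt signalling at the cell surface, was expressed at 22.6, 19.7, 15.4 and 15.2 FPKM at PN21 and 43.2, 33.9, 50.3 and 36.1 FPKM at PN98. All PN98 mice were above all PN21 mice, and the mean rose 2.24-fold (log2 fold change of 1.13 with an SE of 0.20 and adjusted p = 0.0207 in limma). *Lgr6* (chr1:134983301-135105276 on the minus strand), a receptor of R-spondins, measured 2.65, 1.83, 2.87 and 2.42 FPKM at PN21 and 0.0196, 0.364, 0 and 1.12 FPKM at PN98. It was lower in all PN98 mice and listed at 0 in m114 (log2 fold change of −1.39 with an SE of 0.26 and adjusted p = 0.0254 in limma). *Ptk7* (chr17:46564471-46629504 on the minus strand), a co-receptor of planar cell polarity, measured 2.15, 1.43, 2.48 and 2.11 FPKM at PN21 and 1.08, 0.340, 0.448 and 0.102 FPKM at PN98, again with all PN98 mice below all PN21 mice (log2 fold change of −1.06 with an SE of 0.22 and adjusted p = 0.0360 in limma). Each of the 3 calls was lost when certain single mice were left out, *Apcdd1* without m49, m138, m145, m106 or m114, *Lgr6* without any mouse but m35 or m125, and *Ptk7* without any mouse but m35. *Ptk7* was also lost with scaling to nuclear genes (adjusted p = 0.0571), and with an intensity trend in limma (adjusted p = 0.0530), and a pseudocount of 0.1 lost *Lgr6* and *Ptk7*. Of the epithelial markers 1 of 6 tested was called lower (*Epcam*), against 2.93% of all genes tested. The epithelial markers summed to 4.03 to 47.6 FPKM at PN21 and 1.42 to 3.19 FPKM at PN98, and their part in the values of *Lgr6* was not tested.

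Apart from *Lgr6*, no gene on the list of ligand secretion and R-spondins and no target gene was called with all 8 mice as deposited. The genes named here were chosen after their values were seen. *Wls*, the carrier that brings Wnt proteins to the cell surface, measured 14.2, 13.2, 13.9 and 13.5 FPKM at PN21 and 18.3, 17.7, 24.3 and 14.3 FPKM at PN98, and *Porcn*, the enzyme that attaches their lipid, measured 2.52, 3.11, 2.67 and 1.52 FPKM at PN21 and 3.43, 4.71, 3.56 and 4.16 FPKM at PN98. In both, the PN98 mice were all above the PN21 mice, which held for 6.06% of all genes tested. Of the target genes, *Ccnd1* (16.0 to 22.8 FPKM at PN21 and 1.70 to 12.5 at PN98) and *Myc* (18.7 to 27.0 and 4.47 to 17.0) lay lower in all PN98 mice and *Ccn5* (1.06 to 1.93 and 3.01 to 22.0), listed as *Wisp2*, higher. Without m35 these 3 and *Cd44* (7.98 to 14.3 and 1.34 to 13.4 FPKM) were called in limma, with log2 fold changes of −2.24 for *Ccnd1* (adjusted p = 0.00770), −1.76 for *Myc* (adjusted p = 0.00487), 1.34 for *Ccn5* (adjusted p = 0.0451) and −1.50 for *Cd44* (adjusted p = 0.0380). Median of ratios scaling with all 8 mice called *Ccnd1*, *Myc* and *Ccn5* (adjusted p = 0.0350, 0.0352 and 0.0371 in limma). Of all genes, 7.6% were called with that scaling and 22.0% without m35. Of the other lists *Sostdc1* (log2 fold change of −1.08, adjusted p = 0.0305) and *Tle4* (−0.82, adjusted p = 0.0314) were also called lower without m35. Of 6 cycling cell markers 5 were called lower, against 2.93% of all genes tested. The 6 summed to 57.6 to 96.0 FPKM at PN21 and 6.39 to 23.5 FPKM at PN98, and their part in the values of *Ccnd1* and *Myc* was not tested.

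For single transcripts, the rule of the study was applied, with limma on log2(FPKM) for transcripts that no mouse had at 0 and whose FPKM averaged over 2 at one age or the other. The 48 genes had 132 transcripts, of which 29, from 19 genes, were tested. The *Fzd4* transcript was the 1 called (log2 fold change of 1.69 with an SE of 0.22, adjusted p = 0.0241 in limma), and 1.33% of all transcripts tested were called. This call at transcript level was kept without m35 or m125 and lost without any 1 of the other 6 mice. Without adjustment 8 of the 29 had a p under 0.05, with 2 higher and 6 lower at PN98, against 21.7% of all transcripts. The protein-coding *Sfrp2* transcript (ENSMUST00000029625) measured 37.9, 11.4, 37.5 and 54.9 FPKM at PN21 and 16.8, 8.25, 11.9 and 4.08 FPKM at PN98, where m49 lay below m35 and m114, so that the ages overlapped as they did for the gene.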

How the data were processed

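The authors processed paired-end reads of poly(A)+ RNA with CASAVA 1.8.2 and FastQC, aligned them with STAR 2.3.0 to mm10 and quantified transcripts with Cufflinks 2.1.1 on the Gencode annotation. The deposited values are FPKM per Ensembl transcript and mouse, without read counts. The deposited table had lost decimal marks in 40426 of 91969 transcripts. These were restored from the authors' own standard deviation, average and score columns, and 63 transcripts without a single reading, among them those of *Cd3d* and *Glycam1*, were left out. All 5005 transcripts that could be checked against a second deposited table were equal in the 8 mice. That table also holds the authors' fold changes and p-values, which were not used.

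FPKM were summed per gene of GENCODE vM21 (38364 genes), and genes whose FPKM averaged 1 or more were tested with limma 3.58.1 in R 4.3.3 on log2(FPKM + 1), checked on simulated data. The genes, pathway lists and marker lists were chosen with earlier results of these data known. Described in full were called genes, those with no overlap between ages, the gene of each class with the highest mean, called genes of the other pathway lists and *Sfrp5*. Nothing in the labels says more of the replicates than their mouse, age and tissue. The p-values take the mice as independent. Per the methods male mice were housed in pairs of littermates, and whether sequenced mice shared a litter is not given. Age also goes with the change of diet after PN21, and their effects cannot be told apart. Alternatives changed the pseudocount, the filter, the scaling, the weights and the mice included. Promoter sequences are from RefSeq on GRCm38.p6.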

Additional observations from a re-analysis of the deposited data

Results flagged for a closer look

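In 54 groups of 4 mice, each a gene and an age, the gap between the highest or lowest mouse and its neighbour was set against the whole range of the group. It exceeded Dixon's 95% critical value in 4 groups, and chance flags about 1 in 20 groups. *Sfrp4* was 2.19 FPKM in PN98 mouse m125, below the other PN98 mice (gap over range 0.895). *Sfrp1* was 1.07 FPKM in PN21 mouse m49, below the other PN21 mice (gap over range 0.865). *Tcf7* was 47.4 FPKM in PN98 mouse m35, above the other PN98 mice (gap over range 0.855). *Lef1* was 13.4 FPKM in the same mouse, again above the others (gap over range 0.843).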

How the results depend on the processing

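*Fzd4* was called in all 16 alternatives at gene level, with log2 fold changes between 1.49 and 1.87 and adjusted p-values from 0.00165 to 0.0317 (limma). The number of the Wnt genes called, 1 as reported, was 3 without the filter on low values (*Fzd4* and *Wnt9a* higher, *Wnt2b* lower), 3 with median of ratios scaling and 7 with samples weighted by arrayWeights, where 28.7% of all genes were called. It was 1 to 5 when single mice were left out, with 5 without m35 and 3 without m49. Over all genes, 1001 of 27456 were called without the filter and 7.6% with median of ratios scaling. Without m35 22.0% of all genes were called, and without m49 341 of 16056. The number of Wnt genes whose ages did not overlap, 3 as reported, was 2 with scaling to nuclear genes, 5 with median of ratios scaling, 9 without the filter and 3 to 8 when single mice were left out, with 8 without m49, 7 without m35 and 5 without m125. Over all genes, 1261 lay apart higher and 2250 lower of 27456 without the filter. These numbers were 1255 and 4726 of 15985 without m35, and 1115 and 1995 of 16056 without m49. The number of other pathway genes called, 3 as reported, was 1 with a pseudocount of 0.1, 1 with a filter at a mean FPKM of 5, 7 with median of ratios scaling, 11 with arrayWeights and 0 to 9 when single mice were left out, with 9 without m35, 1 without m1 and 0 without m49, m138, m145, m106 or m114. Over all genes, 729 of 16094 were called with that pseudocount and 537 of 11054 with that filter. Without m1, m49, m138, m145, m106 or m114, 209 to 346 genes in all were called. The shares of all genes with the other settings are those given above. Of the transcripts of the Wnt genes 1 was called as reported, 2 with no condition on zeros and 0 to 4 when single mice were left out, with 4 without m35, 1 (*Fzd4*) without m125 and 0, *Fzd4* lost, without any other. Over all transcripts, 524 of 25312 were called with no condition on zeros. Without m35 1750 of 23137 were called, without m125 124 of 23577, and without any other mouse 46 to 92 transcripts. Over the 11 genes described in full, 140 of 173 alternatives kept direction and call, 22 lost a call, 11 gained one and none reversed. No paired analysis was possible because the mice carry numbers that the ages do not share. FPKM give no depth, so that no counting error could be set beside a low value.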
